A study of Mus musculus with 8 samples.

Results

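The genes described here make up the machinery that copies the nuclear genome, followed in micromass cultures of the mouse line CH310T1/2, spelled as in the labels. A fixed set of 39 symbols was listed, and every probe set of the array whose gene symbol equals one of them was taken. The array named 37 of the 39 symbols on 85 of its 45037 probe sets, out of 22657 symbols in all. A micromass is a small, dense drop of cells, a format in which mesenchymal cells can form cartilage. The study examined the transcription factor Erg in the fate of cartilage cells during joint formation, and hybridised total RNA to 8 GeneChip mouse genome arrays, 2 in each of 4 groups.

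The cells of all 4 groups had been electroporated. The arrays labelled Erg overexpression on day 1 came from cells given an Erg-010 construct under the Col2 promoter, a promoter of a cartilage collagen gene. The control arrays of day 1 came from cells given a control plasmid. The arrays labelled Erg overexpression on day 0 came from cells given Erg-010 under the CMV promoter, a strong viral promoter, and the control arrays of day 0 again from cells given a control plasmid. Below, Erg arrays are the arrays so labelled. The promoter changes with the day in the Erg arrays, so that promoter and day cannot be told apart there. Whether a group's 2 arrays are of different cultures is not labelled, so a p-value here reflects only how much its arrays vary, which may be technical variation.

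DNA replication starts at origins bound by the origin recognition complex. Cdc6 and Cdt1 load the ring of Mcm2 to Mcm7 there in G1, and Mcm10 and the GINS complex (Gins1, Gins2) help turn that ring into an active helicase in S phase. Primase and polymerase alpha start each strand, the clamp loader (Rfc1 to Rfc5) places the Pcna clamp for polymerases delta and epsilon, RPA coats single strands, and Fen1 and Lig1 join the pieces of the lagging strand. Ribonucleotide reductase and thymidylate synthase supply deoxynucleotides, and cyclin E and E2F1 bring the cell into S phase. Many of these genes are known targets of E2F factors.

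Promoter stretches with words of the E2F type are shown because E2F factors are the best known regulators of these genes. A word is a run of letters, not a shown binding site. Sequences are from RefSeq on GRCm38.p6, where 32 of the 39 listed symbols have a window of 300 bases, 250 before the start of transcription and 50 after it. The words TTTCCCGC, TTTCGCGC, TTTGCCGC and TTTGGCGC were searched on both strands. A word was found in the windows of 12 of the 32 genes (37.5%), against 704 of 27025 genes of the whole table (2.6%). It lay wholly before the start in 7 of the 32 (21.9%), against 583 of all genes (2.16%). The word CCAAT, searched on both strands, was in 20 of the 32 (62.5%), against 41.1% of all genes. Of the 5 genes with a window among the 6 that were lower on day 1 in the control cultures, described below, 1 holds an E2F-type word (Pole2, after its start). One stretch from each of the 7 genes follows, 5′ to 3′ on the strand of the gene, with the words in capitals. In Mcm5 and Mcm6 a pair of words on opposite strands overlaps.
Mcm5 chr8:75109341-75109382 (+): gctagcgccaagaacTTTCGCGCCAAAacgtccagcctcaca
Mcm6 chr1:128359789-128359830 (-): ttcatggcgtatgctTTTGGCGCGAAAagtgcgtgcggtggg
Mcm7 chr5:138172026-138172063 (-): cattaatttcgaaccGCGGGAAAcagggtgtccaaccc
Cdc6 chr11:98907998-98908035 (+): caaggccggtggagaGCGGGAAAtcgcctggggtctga
Rfc3 chr5:151651209-151651233 (-): agtgacgtcgcacgcTTTCGCGCtc
Pola1 chrX:93632271-93632308 (-): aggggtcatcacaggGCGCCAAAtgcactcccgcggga
Uhrf1 chr17:56304113-56304150 (+): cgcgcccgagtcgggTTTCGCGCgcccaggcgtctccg

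Levels are log2 of RMA intensities, the authors' background-corrected, quantile-normalised and probe-summarised values, and each gene was read from its probe set with the highest mean over the 8 arrays. Of the 37 genes, 8 have 1 probe set, and 6 were read from probe sets of the class x_at and 5 from the class s_at, which can bind more than 1 transcript. The median level of an array lay between 6.59 and 6.70. The mean of 10 mesenchymal markers was 12.2 to 12.7 on 7 arrays and 11.2 on replicate 2 of Erg day 0, which also lay apart from the rest on the second principal component (-84.1, the other 7 between -13.7 and 42.5). Of 6 chondrocyte markers, 2 lay below the array median on every array. The overexpressed gene was not higher in the Erg arrays. Its brighter probe set read 8.53 and 7.68 in Erg day 1 arrays, 8.43 and 8.50 in control day 1 arrays, 6.79 and 5.59 in Erg day 0 arrays, and 7.30 and 7.61 in control day 0 arrays. Whether its probes lie within the transgene was not examined, so these values do not check the labels. In bulk RNA, fewer cells in S phase and less of each transcript per cell cannot be told apart.

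In the control cultures, 6 replication genes were lower on day 1 than on day 0 and none was higher. They were Tyms, Rfc4, Gins2, Ccne1, Pole2 and Pcna, so that the supply of thymidylate, the clamp and its loader, the GINS complex, polymerase epsilon and cyclin E each had at least 1 gene that fell. The 6 of 37 make 16.2%, beside 9.34% lower and 10.5% higher among all 22657 symbols at a Benjamini-Hochberg adjusted p under 0.05 in limma. The differences of 30 genes were negative and 7 positive, with a median of -0.35 on the log2 scale against -0.15 over all symbols. Both day 1 arrays lay below both day 0 arrays for 23 genes (62.2%) and above them for 3 (8.11%), against 47.7% and 26.9% of all symbols. At the level of probe sets 10 of the 85 were lower, against 7.97% of all probe sets.

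Tyms, thymidylate synthase, which makes thymidine monophosphate, had the largest of these differences. It read 9.89 and 9.47 in Erg day 1 arrays, 9.58 and 9.60 in control day 1 arrays, 10.84 and 11.32 in Erg day 0 arrays, and 11.34 and 11.32 in control day 0 arrays. All 4 day 1 arrays were thus below all 4 day 0 arrays. In the control cultures it fell to 0.299 of its day 0 intensity, a log2 difference of -1.74 (SE 0.20, adjusted p = 0.00496, limma). Its probe set also names a Tyms pseudogene and is aligned to chromosome 10, so the signal may be shared. Of the other 4 Tyms probe sets, all near 4 to 6 on the log2 scale, none passed. The other set aligned to chromosome 10 had the opposite sign (0.18, adjusted p = 0.611). Those aligned to chromosome 5 gave -0.23, -0.31 and -0.29 (adjusted p = 0.335, 0.174 and 0.203, limma). Which locus is the gene's own was not examined.

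Rfc4, a subunit of the clamp loader, read 8.98 and 8.27 in Erg day 1 arrays, 8.65 and 9.001 in control day 1 arrays, 9.68 and 10.38 in Erg day 0 arrays, and 10.20 and 10.09 in control day 0 arrays. Its control difference was -1.32 (SE 0.31, adjusted p = 0.0293), and its second probe set gave -1.42 (adjusted p = 0.0401). The clamp itself, Pcna, was the brightest gene of the set, with 12.79 and 12.31 in Erg day 1 arrays, 12.56 and 12.46 in control day 1 arrays, 13.10 and 13.42 in Erg day 0 arrays, and 13.34 and 13.23 in control day 0 arrays. It fell by 0.78 on the log2 scale in the control cultures (SE 0.19, adjusted p = 0.0358). The only Pcna probe set is aligned to chromosome 19, and whether that is the gene's own locus was not examined. Both genes thus kept the days apart in either kind of culture. Gins2, of the GINS complex, read 9.72 and 9.28 in Erg day 1 arrays, 9.51 and 9.60 in control day 1 arrays, 10.16 and 10.87 in Erg day 0 arrays, and 10.71 and 10.73 in control day 0 arrays. Its control difference was -1.17 (SE 0.25, adjusted p = 0.0242) and both of its probe sets passed.

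Pole2, an accessory subunit of polymerase epsilon, read 10.24 and 9.81 in Erg day 1 arrays, 9.97 and 10.11 in control day 1 arrays, 10.51 and 10.73 in Erg day 0 arrays, and 10.81 and 10.86 in control day 0 arrays. It fell by 0.80 in the control cultures (SE 0.17, adjusted p = 0.0248), while a dim second probe set read 0.29 the other way (adjusted p = 0.228). Ccne1, cyclin E1, read 8.49 and 8.18 in Erg day 1 arrays, 8.24 and 7.57 in control day 1 arrays, 8.73 and 8.37 in Erg day 0 arrays, and 8.75 and 8.82 in control day 0 arrays. Its control difference of -0.88 (SE 0.25) was just inside the threshold (adjusted p = 0.0499), and it is read from a probe set class that can cross-hybridise. A second Ccne1 probe set, outside that class, gave -0.82 and did not pass (adjusted p = 0.0686, limma). The smallest difference among the 6 genes was 0.78, and 4 genes that did not pass differed by as much (Ccne2, Gins1, Rfc3 and Rrm2). Their SDs within groups were 0.35 to 0.89, against 0.18 to 0.37 for the 6 that passed. Dimmer second probe sets of Gins1 (-0.88, adjusted p = 0.0282) and Rfc3 (-1.01, adjusted p = 0.031) did pass.

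These calls rest on few arrays. None of them held when either control day 0 array was left out, and most did not hold without a single control day 1 array. Without single arrays the control difference ran from -1.75 to -1.73 for Tyms, -1.50 to -1.15 for Rfc4 and -1.21 to -1.12 for Gins2. For Ccne1 it ran from -1.22 to -0.54, for Pole2 from -0.87 to -0.72 and for Pcna from -0.83 to -0.72. The median without replicate 2 of control day 1 was -0.15, against -0.11 over all symbols.

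**Figure D1:**
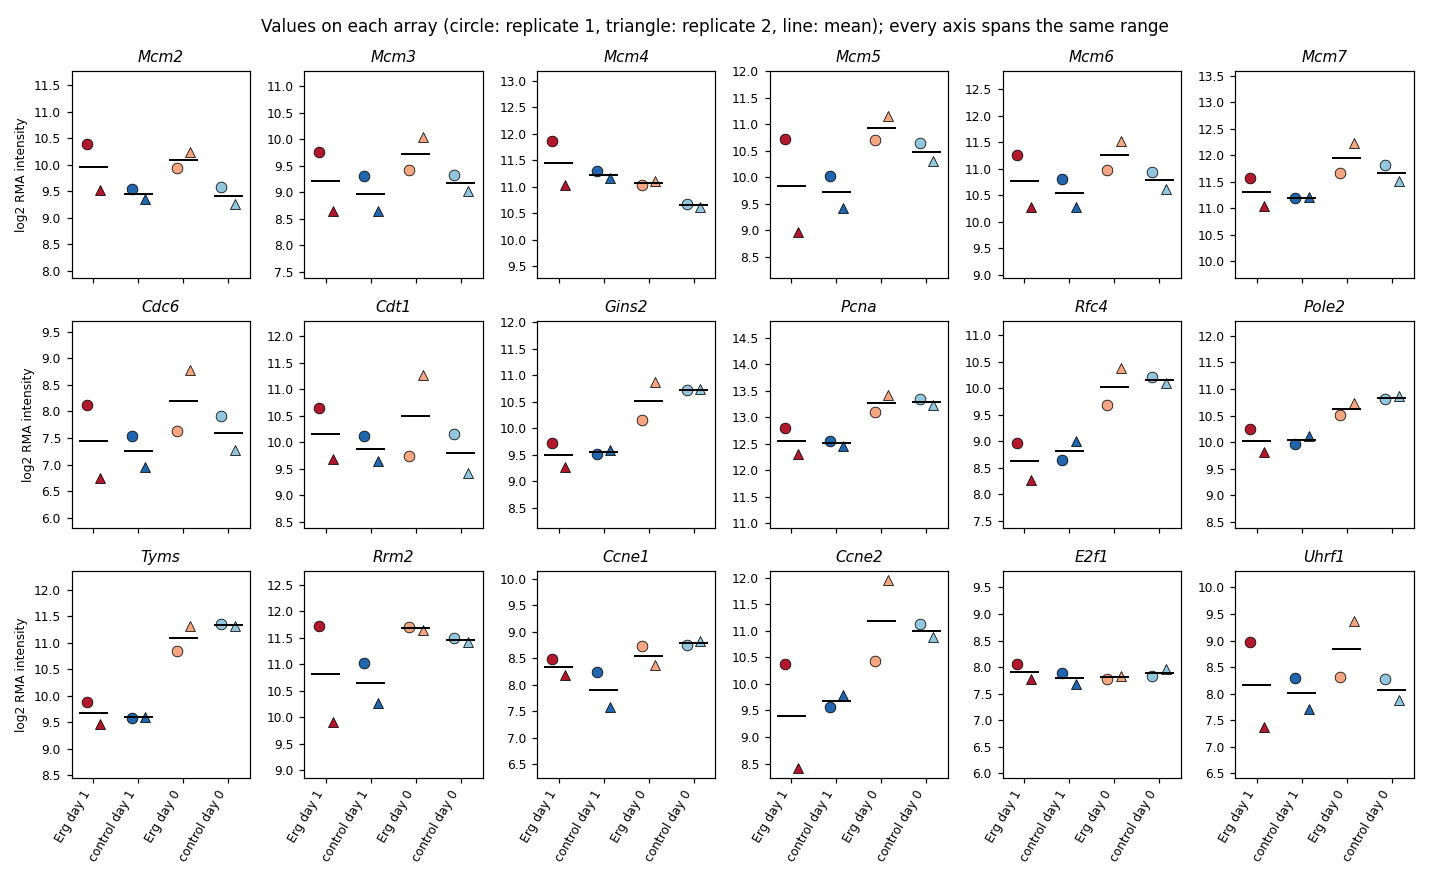
Log2 RMA intensity of 18 replication genes on each of the 8 arrays, by group (Erg day 1, control day 1, Erg day 0, control day 0), with circles for replicate 1, triangles for replicate 2 and a line at the mean. Tyms, Rfc4, Gins2, Pcna and Pole2 lie lower on day 1 in both kinds of culture, whereas Mcm4 lies higher on day 1 in the control cultures and the arrays of Mcm2 and Cdt1 overlap between the days.

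Of the 6 genes of the MCM ring none passed the test between the days, in either kind of culture. Their differences were negative for 5 of 6 in the Erg cultures (median -0.50) and for 4 of 6 in the control cultures (median -0.22), where Mcm2 was also below 0 after cyclic loess. Mcm2 read 10.39 and 9.53 in Erg day 1 arrays, 9.54 and 9.36 in control day 1 arrays, 9.94 and 10.24 in Erg day 0 arrays, and 9.58 and 9.26 in control day 0 arrays. Its control difference between the days was 0.03 (95% interval -0.65 to 0.71, adjusted p = 0.948), and -0.09 after cyclic loess. Mcm4 read 11.86 and 11.04 in Erg day 1 arrays, 11.30 and 11.16 in control day 1 arrays, 11.03 and 11.10 in Erg day 0 arrays, and 10.68 and 10.62 in control day 0 arrays. Its control difference was 0.58 (SE 0.25, adjusted p = 0.141), the highest of the 37, with both day 1 arrays above both day 0 arrays. It passed when the 4 control arrays were fitted alone.

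The other MCM genes had negative control differences, and all but Mcm7 had wider spread than Mcm2 and Mcm4. Mcm5 read 10.73 and 8.96 in Erg day 1 arrays, 10.03 and 9.42 in control day 1 arrays, 10.71 and 11.16 in Erg day 0 arrays, and 10.64 and 10.30 in control day 0 arrays, with a control difference of -0.75 (SE 0.54, adjusted p = 0.343). Mcm7 read 11.57 and 11.05 in Erg day 1 arrays, 11.19 and 11.20 in control day 1 arrays, 11.67 and 12.24 in Erg day 0 arrays, and 11.81 and 11.51 in control day 0 arrays, with a control difference of -0.46 (SE 0.25, adjusted p = 0.218). Both thus had their day 1 control arrays below their day 0 control arrays. Mcm6 read 11.26 and 10.28 in Erg day 1 arrays, 10.81 and 10.28 in control day 1 arrays, 10.99 and 11.52 in Erg day 0 arrays, and 10.94 and 10.63 in control day 0 arrays, a control difference of -0.24 (SE 0.36, adjusted p = 0.648). Mcm3 read 9.77 and 8.66 in Erg day 1 arrays, 9.30 and 8.64 in control day 1 arrays, 9.42 and 10.04 in Erg day 0 arrays, and 9.32 and 9.02 in control day 0 arrays, a control difference of -0.20 (SE 0.41, adjusted p = 0.748). For these last genes the days overlapped, and the Mcm3 probe set also names another locus, LOC100045677. The Mcm7 probe set is aligned to chromosome 16, although the promoter window of Mcm7 lies on chromosome 5, so its signal may be shared. A dimmer Mcm7 probe set aligned to chromosome 5 gave -0.36 (adjusted p = 0.376, limma). The Mcm2, Mcm3 and Mcm6 control differences changed sign when single arrays were left out.

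Of the factors that load and activate the ring, Gins2 alone passed. Cdc6, which helps to load it, read 8.13 and 6.74 in Erg day 1 arrays, 7.55 and 6.95 in control day 1 arrays, 7.62 and 8.78 in Erg day 0 arrays, and 7.92 and 7.27 in control day 0 arrays. The control cultures differed by -0.35 between the days (SE 0.56, adjusted p = 0.671). Cdt1, its partner, read 10.65 and 9.68 in Erg day 1 arrays, 10.12 and 9.65 in control day 1 arrays, 9.74 and 11.26 in Erg day 0 arrays, and 10.17 and 9.42 in control day 0 arrays. Its control difference was 0.09 (95% interval -1.23 to 1.41, adjusted p = 0.917), and its sign turned with cyclic loess (-0.01), with the mean of its probe sets (-0.20) and without single arrays. In both genes the control arrays of the 2 days overlapped.

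The origin recognition genes Orc2 and Orc6 were not found under these symbols. The array lists their older names, Orc2l and Orc6l, which RefSeq gives as synonyms, and these are described apart from the 37. Orc2l read 9.26 and 9.05 in Erg day 1 arrays, 9.18 and 9.27 in control day 1 arrays, 9.27 and 10.70 in Erg day 0 arrays, and 10.08 and 9.34 in control day 0 arrays. Orc6l read 9.87 and 9.69 in Erg day 1 arrays, 9.76 and 10.13 in control day 1 arrays, 10.08 and 11.12 in Erg day 0 arrays, and 10.66 and 10.38 in control day 0 arrays. Their control differences of -0.49 and -0.58 did not pass (adjusted p = 0.461 and 0.244), although no day 1 array of Orc2l lay above a day 0 array.

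Among the S-phase genes beyond the fork, Rrm2, the regulated subunit of ribonucleotide reductase, read 11.72 and 9.90 in Erg day 1 arrays, 11.01 and 10.27 in control day 1 arrays, 11.71 and 11.65 in Erg day 0 arrays, and 11.50 and 11.42 in control day 0 arrays. The day 0 arrays were close together and the day 1 arrays far apart, and the control difference of -0.81 (SE 0.54) did not pass (adjusted p = 0.308). Rrm2 is read from a probe set class that can cross-hybridise. Dimmer Rrm2 probe sets outside that class gave larger differences of -1.39 and -1.09, which did not pass either (adjusted p = 0.1065 and 0.1841, limma). Ccne2, cyclin E2, read 10.38 and 8.41 in Erg day 1 arrays, 9.57 and 9.80 in control day 1 arrays, 10.43 and 11.96 in Erg day 0 arrays, and 11.13 and 10.88 in control day 0 arrays. Its control difference of -1.32 (SE 0.69, adjusted p = 0.207) was as large as that of Rfc4, with the highest within-group SD of the set. E2f1, the activator of many S-phase genes, read 8.05 and 7.78 in Erg day 1 arrays, 7.89 and 7.68 in control day 1 arrays, 7.78 and 7.83 in Erg day 0 arrays, and 7.84 and 7.95 in control day 0 arrays. Between the control days it differed by -0.11 (95% interval -0.46 to 0.24, adjusted p = 0.602). Uhrf1, which carries DNA methylation over to the new strand, read 8.97 and 7.36 in Erg day 1 arrays, 8.29 and 7.71 in control day 1 arrays, 8.31 and 9.37 in Erg day 0 arrays, and 8.27 and 7.88 in control day 0 arrays. Its control difference was -0.07 (95% interval -1.42 to 1.28, adjusted p = 0.934) and changed sign without single arrays.

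The remaining genes followed their complexes only in part. All control differences of the 6 clamp and clamp loader genes but that of Rfc1 (0.41) were negative. Of the 8 polymerase and primase genes 6 were negative, from -0.80 for Pole2 to 0.17 for Pole, the catalytic subunit of the same polymerase. The 3 RPA genes ran from -0.66 for Rpa3 to 0.06 for Rpa1. Fen1 and Lig1 gave -0.35 and -0.29, and none of the genes named in these sentences passed besides Pole2.

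In the Erg cultures, where promoter and day changed together, 2 replication genes were lower on day 1 than on day 0 and none was higher. These were Tyms (-1.41, SE 0.20, adjusted p = 0.0155) and Rfc4 (-1.41, SE 0.31, adjusted p = 0.0447). The 2 of 37 make 5.41%, beside 1.97% lower and 5.85% higher among all symbols. The median difference was -0.42, against -0.08 over all symbols, with 30 negative and 7 positive. Both day 1 arrays lay below both day 0 arrays for 14 genes (37.8%) and above them for none, against 32.8% and 24% of all symbols. At the level of probe sets 4 of the 85 were lower, against 1.67% of all. Among them were dimmer second probe sets of Gins2 (-1.25, adjusted p = 0.0293, limma) and Rfc3 (-1.16, adjusted p = 0.0395). The second Rfc4 probe set gave -1.40 and did not pass (adjusted p = 0.0736). The most negative value was that of Ccne2 (-1.80, SE 0.69, adjusted p = 0.17), and after Tyms and Rfc4 came Mcm5 (-1.09, adjusted p = 0.263), Gins1 (-1.05, adjusted p = 0.0806) and Gins2 (-1.02, adjusted p = 0.0633). Pcna gave -0.71 (adjusted p = 0.0809). The count of genes past the threshold changed whichever single array was left out. The median was -0.74 without replicate 1 of Erg day 1, -0.07 without replicate 2 of Erg day 1, -0.76 without replicate 1 of Erg day 0 and -0.23 without replicate 2 of Erg day 0.

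**Figure D2:**
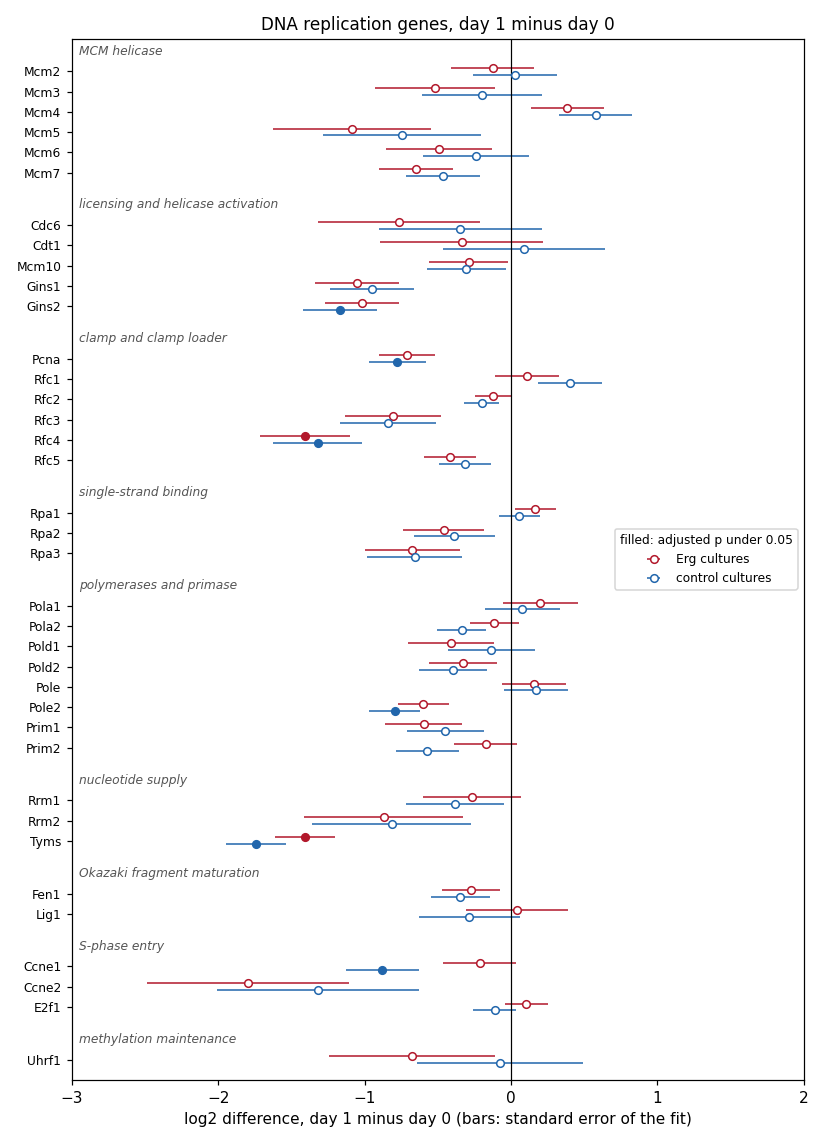
Log2 difference between day 1 and day 0 for the 37 replication genes by role, in Erg cultures (red) and control cultures (blue), with the standard error of the fit as bars and filled points for an adjusted p under 0.05. Filled points are Tyms and Rfc4 in the Erg cultures and Tyms, Rfc4, Gins2, Ccne1, Pole2 and Pcna in the control cultures, all left of 0.

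The difference of the Erg effects between the days, which is also the difference between these time changes, passed for no replication gene and for 0% of all symbols. Its median over the 37 was -0.02, against 0.05 over all symbols. No replication gene reached an unadjusted p under 0.05 in limma, against 2.1% of all symbols. The smallest unadjusted p-values above 0 were those of Ccne1 (0.67, SE 0.35), Prim2 (0.40, SE 0.31) and Tyms (0.34, SE 0.29). Below 0 they were those of Rfc1 (-0.29, SE 0.31), Uhrf1 (-0.60, SE 0.80) and Pold1 (-0.28, SE 0.42). The adjusted p was 0.974 for each of these 6 genes. Pold1, the catalytic subunit of polymerase delta, had 8.55 and 8.22 in Erg day 1 arrays, 8.39 and 8.35 in control day 1 arrays, 8.35 and 9.25 in Erg day 0 arrays, and 8.67 and 8.34 in control day 0 arrays, so that 1 Erg day 0 array stood above the other 7. Without replicate 1 of Erg day 1 the median was -0.30.

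On day 1, the arrays labelled Erg overexpression and the control arrays differed in no replication gene by the test, and 0% of all symbols passed. The median difference was 0.13, against 0.04 over all symbols, with 28 genes above 0 and 9 below. No unadjusted p of the 37 was under 0.05 in limma, and only 0.768% of all symbols had one. Both Erg arrays lay above both control arrays for 3 genes (8.11%) and below them for none, against 21.1% and 9.51% of all symbols. The 3 genes were Rpa1, Pola2 and Pold2. Rpa1, the large RPA subunit, read 12.27 and 12.02 in Erg day 1 arrays, 11.95 and 11.79 in control day 1 arrays, 12.04 and 11.93 in Erg day 0 arrays, and 11.82 and 11.80 in control day 0 arrays, above the controls on either day. Its difference was 0.28 on day 1 (95% interval -0.05 to 0.61). A dimmer second Rpa1 probe set gave 0.14 on day 1 and overlapped, with 11.09 and 10.80 in Erg arrays and 10.95 and 10.65 in control arrays. Pold2, a subunit of polymerase delta, read 9.35 and 9.27 in Erg day 1 arrays, 9.17 and 8.63 in control day 1 arrays, 9.44 and 9.84 in Erg day 0 arrays, and 9.45 and 9.13 in control day 0 arrays, with a day 1 difference of 0.41 (95% interval -0.13 to 0.96). For Mcm2, whose arrays are given above, it was 0.51 (95% interval -0.17 to 1.19), with overlap.

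Below 0 on day 1, the smallest unadjusted p-values were those of Rpa3, Rfc4 and Prim1. Rpa3, the small RPA subunit, read 11.06 and 11.30 in Erg day 1 arrays, 11.15 and 12.16 in control day 1 arrays, 11.64 and 12.07 in Erg day 0 arrays, and 12.27 and 12.35 in control day 0 arrays. Its day 1 difference of -0.47 (95% interval -1.25 to 0.30) became 0.03 without replicate 2 of control day 1. Prim1, the catalytic primase subunit, read 10.67 and 10.25 in Erg day 1 arrays, 10.51 and 10.72 in control day 1 arrays, 10.70 and 11.42 in Erg day 0 arrays, and 11.14 and 10.98 in control day 0 arrays. Its difference of -0.15 and that of Rfc4 (-0.20, 95% interval -0.93 to 0.53) changed sign without replicate 2 of Erg day 1, and the median of the 37 was -0.20 without replicate 1 of Erg day 1.

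On day 0, again no replication gene passed between the arrays labelled Erg overexpression and the control arrays, and 0% of all symbols did. The median difference was 0.15, against -0.03 over all symbols, with 25 genes above 0 and 12 below. None of the 37 had an unadjusted p under 0.05 in limma, against 6.1% of all symbols. Both Erg arrays lay above both control arrays for 8 genes (21.6%) and below them for 5 (13.5%), against 12.9% and 18.5% of all symbols. The MCM ring held 5 of the 8 (Mcm2 to Mcm6), and its 6 genes ran from 0.29 for Mcm7 to 0.67 for Mcm2. For Mcm2 the 95% interval was -0.02 to 1.35, for Mcm4 (0.42) -0.18 to 1.01, and for Mcm3 (0.56) -0.42 to 1.54, with an adjusted p of 0.802 or more for each of the 37 genes. Uhrf1 (0.76), Cdt1 (0.71) and Cdc6 (0.61) had wide 95% intervals, each from below -0.5 to above 1.9. Pcna gave -0.03 (95% interval -0.49 to 0.44), Rrm2 0.22, Ccne2 0.19, E2f1 -0.09 and Ccne1 -0.24.

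**Figure D3:**
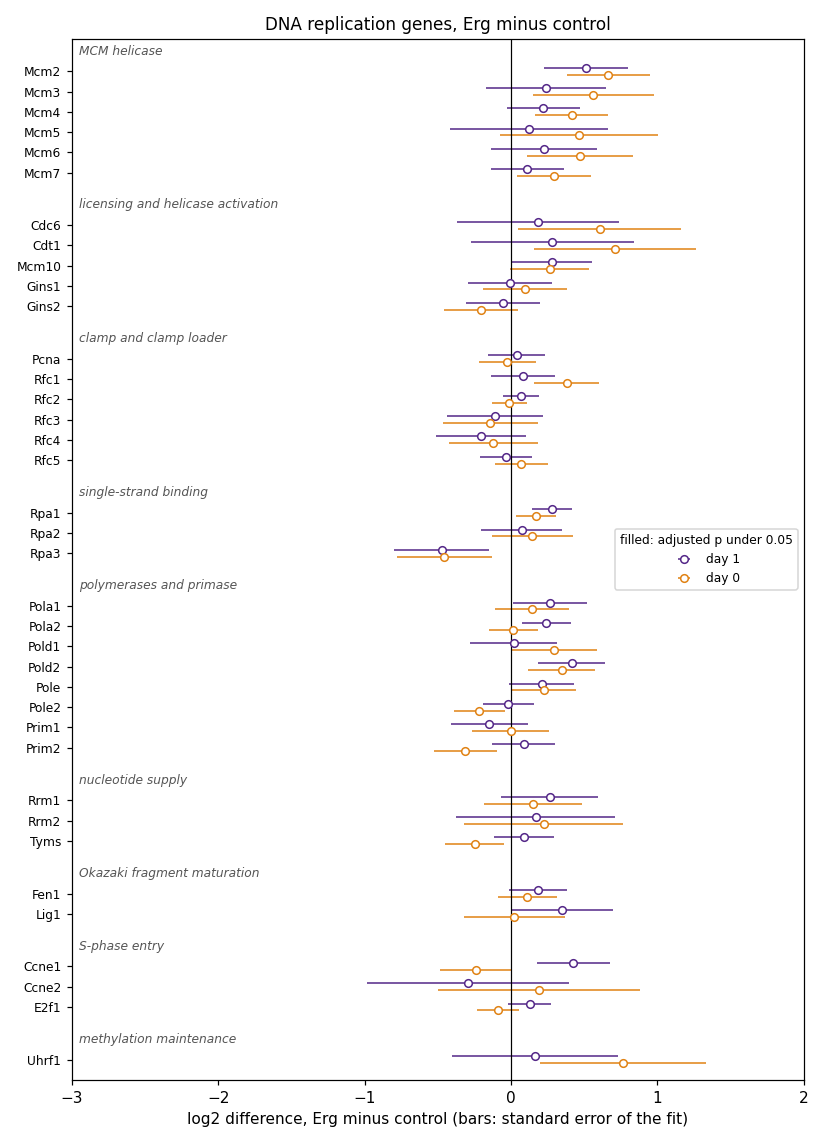
Log2 difference between arrays labelled Erg overexpression and control arrays for the 37 replication genes by role, on day 1 (purple) and day 0 (orange), with the standard error of the fit as bars. No point is filled, since no adjusted p was under 0.05, and the MCM points on day 0 lie between 0.29 and 0.67.

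These day 0 differences move with replicate 2 of Erg day 0, the array with the low mesenchymal markers. Without it the median was -0.05, Cdt1 was -0.05, Cdc6 0.03, Uhrf1 0.24 and the MCM genes 0.01 (Mcm7) to 0.51 (Mcm2). Without the other Erg day 0 array the median was 0.36 and the MCM genes ran from 0.45 to 0.87. Rfc1, the large clamp loader subunit, read 9.78 and 9.56 in Erg day 1 arrays, 9.74 and 9.43 in control day 1 arrays, 9.28 and 9.84 in Erg day 0 arrays, and 9.28 and 9.08 in control day 0 arrays, and its day 0 difference (0.38) was 0.10 without replicate 2 of Erg day 0. Below 0, Prim2 (-0.31), Rpa3 (-0.46) and Pole2 (-0.22) had the smallest unadjusted p-values. Prim2, the regulatory primase subunit, read 10.30 and 9.70 in Erg day 1 arrays, 9.88 and 9.95 in control day 1 arrays, 10.33 and 10.01 in Erg day 0 arrays, and 10.42 and 10.55 in control day 0 arrays. All 3 had both Erg day 0 arrays below both day 0 control arrays.

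Replication genes varied more between the arrays of a group than most genes did. Their median within-group SD was 0.31, against 0.17 over all symbols. In Erg day 1, replicate 1 was higher than replicate 2 for 36 of the 37 genes, against 43.5% of all symbols. The median difference was 0.48, against -0.03 over all symbols. The gap exceeded 1 for 6 of the 37 genes, against 1% of all symbols. Among the 6 were Ccne2 (1.96), Rrm2 (1.82), Mcm5 (1.76) and Uhrf1 (1.61). In Erg day 0, replicate 2 was higher for 29 of 37, whereas replicate 1 was higher for 57% of all symbols. The median of replicate 1 minus replicate 2 was -0.43, against 0.07 over all symbols. Large gaps were common in this group, exceeding 1 for 5 of the 37 and for 10.6% of all symbols. In the control groups the medians were 0.18 on day 1 and 0.15 on day 0, against 0.06 and -0.02 over all symbols.

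**Figure D4:**
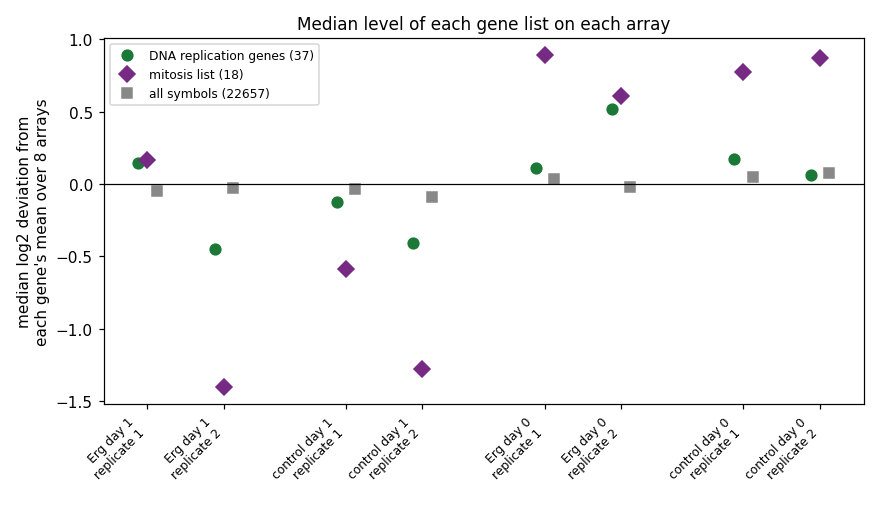
Median over the genes of a list of the log2 deviation from each gene's mean over the 8 arrays, for each array, with circles for the 37 replication genes, diamonds for 18 mitosis genes and squares for all symbols. The replication median was 0.15 and -0.45 on the Erg day 1 arrays, -0.13 and -0.41 on the control day 1 arrays, 0.11 and 0.52 on the Erg day 0 arrays, and 0.17 and 0.06 on the control day 0 arrays.

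Mitosis genes, listed for comparison, moved further between the days. Of 18, 10 were lower on day 1 in the control cultures and none was higher, with a median of -1.66, beside the 9.34% lower among all symbols. In the Erg cultures 1 of 18 was lower (5.56%), beside 1.97% among all symbols in that comparison. The median there was -1.48, against -0.08 over all symbols. Cenpa, the centromere histone, fell by 1.66 in the Erg cultures (adjusted p = 0.0261) and fell by 2.08 in the control cultures (adjusted p = 0.00761). Ccnb2, a mitotic cyclin, fell by 2.99 in the control cultures (adjusted p = 0.018). The array medians of this list were 0.17 and -1.41 on the Erg day 1 arrays, -0.58 and -1.28 on the control day 1 arrays, 0.89 and 0.61 on the Erg day 0 arrays, and 0.77 and 0.87 on the control day 0 arrays. On day 1 the replicate that was higher for replication genes was thus also higher for mitosis genes in each group. On day 0 the order of the replicates was opposite between the lists in each group. The replication medians there were 0.11 and 0.52 on the Erg arrays and 0.17 and 0.06 on the control arrays. What part the share of dividing cells on each array has in the replication values was not tested.

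Of 36 other replication factors, 7 were lower in the control cultures (19.4%) and 2 higher (5.56%), with a median of -0.46, beside 9.34% lower and 10.5% higher among all symbols. Rnaseh2a, which removes primers and misplaced ribonucleotides, fell by 1.23 (SE 0.13, adjusted p = 0.00385), Pold4, a small subunit of polymerase delta, fell by 1.80 (SE 0.23, adjusted p = 0.0059), and Gmnn, geminin, the inhibitor of Cdt1, fell by 1.59 (SE 0.34, adjusted p = 0.0244). Topoisomerase Top1 rose by 0.66 (SE 0.12, adjusted p = 0.0134), as did Dnmt1, the maintenance DNA methyltransferase (0.95). In the Erg cultures 2 of 36 were lower (5.56%), Rnaseh2a (-0.81) and Pold4 (-1.43), and Top1 was higher (0.67), beside 1.97% lower and 5.85% higher among all symbols.

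Among 19 further genes of nucleotide supply, 3 were lower in the control cultures (15.8%) and none was higher, beside 9.34% lower and 10.5% higher among all symbols. Ctps, CTP synthase, read 11.41 and 11.04 in Erg day 1 arrays, 11.20 and 11.09 in control day 1 arrays, 13.15 and 12.55 in Erg day 0 arrays, and 12.90 and 12.97 in control day 0 arrays, with differences between the days of -1.63 in the Erg cultures (adjusted p = 0.0134) and -1.79 in the control cultures (adjusted p = 0.00574). Like Tyms, it kept the days fully apart. Dut, which keeps uracil out of DNA, fell by 1.12 (adjusted p = 0.0243) and Tk1, thymidine kinase, fell by 2.18 (adjusted p = 0.038) in the control cultures. In the Erg cultures Ctps and Samhd1 of this list were lower (10.5%) and none was higher, beside 1.97% lower and 5.85% higher among all symbols.

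Of 34 genes of G1 and S control, 4 were higher on day 1 in the control cultures (11.8%) and 1 lower (2.94%), with a median of -0.05. The share higher is near the 10.5% of all symbols, and the share lower is beside 9.34% of all. Tfdp2, a dimer partner of E2F, read 10.01 and 10.07 in Erg day 1 arrays, 10.00 and 9.84 in control day 1 arrays, 8.53 and 8.38 in Erg day 0 arrays, and 8.19 and 8.14 in control day 0 arrays, higher on day 1 by 1.58 in the Erg cultures (adjusted p = 0.00322) and by 1.76 in the control cultures (adjusted p = 0.00191). Rbl2, the p130 pocket protein known from resting cells, rose by 1.14 in the Erg cultures (adjusted p = 0.0264) and by 0.93 in the control cultures (adjusted p = 0.0247). Its relative Rbl1 fell by 0.51 in the control cultures (adjusted p = 0.0438). Ccnd2, a D-type cyclin, rose by 0.74 there (adjusted p = 0.0162). Of 24 genes of the replication checkpoint and fork repair, 1 (4.17%) was higher in the control cultures and none was lower, against the same 10.5% and 9.34%. It was Atr, the kinase that senses stalled forks, which rose by 0.93 (adjusted p = 0.02). In the Erg cultures Bard1, the partner of Brca1, fell by 0.71 (adjusted p = 0.0356) and none rose. That is 4.17% of this list lower, beside 1.97% lower and 5.85% higher among all symbols. No gene of these 4 lists passed between Erg and control arrays on either day.

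Of the 6 chondrocyte markers, 3 had positive and 3 negative differences between the control days, and 1 passed the test. It was Sox9, the cartilage regulator, which was higher on day 1 (1.44, adjusted p = 0.00722), whereas the matrix genes Acan (-0.38, adjusted p = 0.0707) and Hapln1 (-0.52, adjusted p = 0.0642) lay below 0. Among the other markers, the mesenchymal marker Pdgfrb was higher on day 1 in the control cultures (0.81, adjusted p = 0.0216), and Cd68, a marker of macrophages, was lower (-1.60, adjusted p = 0.0443). The mean of the 6 leukocyte markers lay between 5.60 and 6.23 on all arrays, below the array medians, and that of the 5 endothelial markers between 6.04 and 6.43. The mean of the 5 epithelial markers lay between 6.16 and 6.53, and Krt18 among them was lower on day 1 in the control cultures (-0.74, adjusted p = 0.0178). Their part in the replication values was not tested.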

How the data were processed

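RMA intensities, on a linear scale, were deposited by the authors. Partek GS is the software named in the workbook's notes and dChip the one in the series text, and which made the values is unsettled. The genome build of the probe alignments is not given in the sources used here. Intensities were transformed to log2. In limma 3.58.1 (R 4.3.3), 4 group means were fitted by lmFit and eBayes to all 8 arrays and 45037 probe sets, without a filter, with 4 residual degrees of freedom. Benjamini-Hochberg adjustment ran over every probe set, at a threshold of 0.05. An exact permutation test of 2 arrays against 2 cannot give a p below 0.333. Errors are SE from limma, and precision is limited by how few arrays there are. The fit was tested on simulated data. Symbols sharing a probe set were split, and each was read from its brightest probe set.

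The replication genes and all other lists were chosen with earlier results of these data known. The lists were other replication factors, nucleotide supply, G1 and S control, checkpoint and fork repair, mitosis, and mesenchymal, chondrocyte, endothelial, leukocyte and epithelial markers. Ticrr, Chaf1a, Cdt2 and Adgre1 were not matched. Values by array are given for 14 fixed genes and for genes past the threshold between the days. They are also given for the 3 genes up and 3 down with the lowest unadjusted p in each Erg comparison. A few genes are named from most lists, without a fixed number. Alternatives were another copy of the values, an intensity trend, leaving out dim probe sets, the mean of all probe sets, cyclic loess, a replicate block, a fit to only the 4 arrays compared, and leaving out each array.

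Same-numbered arrays of the Erg and control groups deviated together on day 1 (r = 0.32) but not on day 0 (r = -0.61, over probe sets), so the numbers were not taken to pair the arrays.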

Additional observations from a re-analysis of the deposited data

How the results depend on the processing

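With the replicate block, 5 members were lower between the control days (Gins2, Rfc4, Pole2, Tyms and Ccne1) and 1 between the Erg days (Tyms); with the numbers crossed on day 0, chosen after seeing the data, the counts were 6 and 5. With the 4 arrays of a comparison alone, 10 were lower and 1 (Mcm4) higher between the control days, and 0 lower between the Erg days. The count between the Erg days was 1 with the mean of all probe sets and 4 with cyclic loess. The share of all symbols that passed under each alternative is not given here, so these counts show only that the calls moved. Between the control days, cyclic loess gave -0.085 for Mcm2 and -0.010 for Cdt1, and the mean of all probe sets -0.20 for Cdt1. With dim probe sets left out the median of all symbols between the control days was -0.02. The Erg comparisons gave 0 members under every alternative run.

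Leaving out 1 array at a time gave 0 to 8 members lower between the control days and 0 to 11 between the Erg days. The medians then ran from -0.76 to -0.071 between the Erg days, from -0.20 to 0.39 for Erg against control on day 1, and from -0.30 to 0.26 for the difference between the days. Between the control days the ranges were -0.13 to 0.19 for Mcm2, -0.53 to 0.13 for Mcm3, -0.51 to 0.023 for Mcm6, -0.28 to 0.46 for Cdt1 and -0.36 to 0.22 for Uhrf1. For Erg against control on day 0 they were -0.050 to 1.47 for Cdt1, -0.19 to 0.14 for Pcna and -0.58 to 0.95 for Ccne2. On day 1 they were -0.56 to 0.15 for Rfc4, -0.98 to 0.034 for Rpa3 and -0.36 to 0.064 for Prim1. For the difference of the Erg effects they were -0.73 to 0.17 for Pold1 and -1.41 to 0.20 for Uhrf1. The cause of these changes was not tested, beyond the smaller number of arrays. Without detection calls, signal over background was not measured.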
